A study of Mus musculus with 2 samples.

Results

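The EGR1 peaks at bidirectional promoters are those whose centre lay within 1 kb of a transcription start site (TSS) of at least 2 protein-coding genes, with at least 1 gene on each strand. In the peak list from mouse frontal cortex, 685 of the 11938 peaks on assembled chromosomes were of this kind (5.74%, 95% Wilson interval 5.33 to 6.17), and 12014 peaks were deposited in all. The peaks came from chromatin immunoprecipitation with an antibody against EGR1 followed by sequencing (ChIP-seq), performed on 129SvEv/C57BL/6N F1 hybrid male mice of 6 weeks, for which the labels name no mutation and no treatment. Frontal cortices of 4 to 5 animals were pooled for a ChIP, and the authors merged 2 ChIP replicates into 1 list, which gives the position of each peak and its irreproducible discovery rate (IDR), a value that is low where a peak ranked high and alike in both replicates. The list holds no read counts, so the depth behind a peak is unknown, and no values of single replicates. An input DNA sample had no processed file and was not analysed here, and no knockout sample is part of the series. The tissue holds neurons and glia together, so the cell type in which a site was bound is not given by these data.

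A bidirectional promoter is the short stretch of DNA between a pair of genes that are transcribed away from each other, and it commonly lies in a CpG island, a region rich in unmethylated CpG dinucleotides. Many housekeeping genes, such as those of DNA repair, chaperones and mitochondria, have promoters of this kind. EGR1 is a zinc-finger transcription factor whose gene is switched on within minutes by neuronal activity, and it recognises the GC-rich letters GCGTGGGCG or GCGGGGGCG. These letters hold CpG dinucleotides and were searched on both strands as the exact EGR1 motif.

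Such promoters are shown here by the exon-free bases between the TSSs at the lowest-IDR members that hold an exact EGR1 motif there, read 5′ to 3′ on the plus strand of the C57BL/6J reference (mm10, GRCm38.p6), not from the hybrid mice, with the motif in capitals. In each name the plus-strand gene comes first.
Mbd5/Orc4, chr2:48949277-48949507: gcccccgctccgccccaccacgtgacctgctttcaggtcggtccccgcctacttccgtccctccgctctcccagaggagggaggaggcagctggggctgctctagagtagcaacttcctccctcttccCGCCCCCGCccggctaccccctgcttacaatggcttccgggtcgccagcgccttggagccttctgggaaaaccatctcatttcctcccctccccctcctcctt
Atg3/Slc35a5, chr16:45158707-45158784: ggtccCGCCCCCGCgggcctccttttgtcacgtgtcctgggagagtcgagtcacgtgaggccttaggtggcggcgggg
Cct7/Pradc1, chr6:85451284-85451513: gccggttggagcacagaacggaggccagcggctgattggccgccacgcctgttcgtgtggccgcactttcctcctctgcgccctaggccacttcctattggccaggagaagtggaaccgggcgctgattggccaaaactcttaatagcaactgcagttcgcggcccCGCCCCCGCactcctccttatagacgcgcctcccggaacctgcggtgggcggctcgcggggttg
Spsb3/Nubp2, chr17:24886350-24886642: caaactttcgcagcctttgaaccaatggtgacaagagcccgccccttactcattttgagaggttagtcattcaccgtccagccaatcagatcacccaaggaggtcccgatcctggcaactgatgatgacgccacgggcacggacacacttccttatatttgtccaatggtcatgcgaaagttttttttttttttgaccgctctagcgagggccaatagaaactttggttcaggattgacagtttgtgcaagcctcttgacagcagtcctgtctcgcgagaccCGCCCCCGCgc
Nelfe/Skiv2l, chr17:34850211-34850390: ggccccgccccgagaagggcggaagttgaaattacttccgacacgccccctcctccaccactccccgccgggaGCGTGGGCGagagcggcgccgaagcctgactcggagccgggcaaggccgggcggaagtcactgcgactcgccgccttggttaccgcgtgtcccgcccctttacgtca
Enoph1/Hnrnpdl, chr5:100039855-100039984: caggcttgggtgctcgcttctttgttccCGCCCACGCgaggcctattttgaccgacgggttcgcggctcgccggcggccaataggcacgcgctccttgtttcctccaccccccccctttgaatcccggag
The motif stood as GCGGGGGCG in the first 4 sequences and as GCGTGGGCG in the last 2, on the minus strand in all but Nelfe/Skiv2l, so that it reads CGCCCCCGC or CGCCCACGC here. Mbd5 encodes a methyl-CpG-binding domain protein and Orc4 a subunit of the origin recognition complex. Atg3 is an enzyme of autophagosome formation, Cct7 a subunit of the CCT chaperonin, Nelfe a subunit of the negative elongation factor of RNA polymerase II, and Hnrnpdl an RNA-binding protein. The members without an exact motif that had the lowest IDRs and an exon-free stretch are shown for comparison (inexact EGR1 sites were not searched), with the letters CCAAT (bound by NF-Y) and AAGATGGCG (bound by YY1) in capitals on whichever strand they occurred.
AU040320/Ncdn, chr4:126753439-126753543: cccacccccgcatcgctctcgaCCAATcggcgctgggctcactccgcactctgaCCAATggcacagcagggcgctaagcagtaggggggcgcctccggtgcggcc
Snap29/Pi4ka, chr16:17405894-17405985: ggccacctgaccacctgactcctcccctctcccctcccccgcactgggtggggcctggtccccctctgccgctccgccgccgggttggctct
Rpl18/Sphk2, chr7:45715208-45715456: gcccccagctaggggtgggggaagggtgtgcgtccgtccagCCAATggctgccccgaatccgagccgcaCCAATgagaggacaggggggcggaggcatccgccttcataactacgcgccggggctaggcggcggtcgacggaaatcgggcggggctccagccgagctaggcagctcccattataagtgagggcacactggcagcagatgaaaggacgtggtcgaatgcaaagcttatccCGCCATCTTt
The IDR was 1.77e-08 at AU040320/Ncdn, where Ncdn encodes the neuronal protein neurochondrin, 2.38e-08 at Snap29/Pi4ka and 3.49e-08 at Rpl18/Sphk2. At Snap29/Pi4ka, which pairs a SNARE protein with a phosphatidylinositol kinase, none of these letters occurred in the 92 bases between the starts. CCAAT was not confined to members without the motif. Left in small letters, it also occurred on either strand in the sequences of Cct7/Pradc1, Spsb3/Nubp2 and Enoph1/Hnrnpdl above.

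The 685 peaks belonged to 602 gene pairs, taken as the genes with the nearest TSS on each strand, and to 1218 gene symbols. A single member was found at 526 pairs, 2 at 69 pairs and 3 at 7 pairs. Members at the same promoter are not independent of each other. Pairs were taken by gene name, so a pair with several annotated starts could have members at separate promoters. In 656 members the rule was met by 2 genes, in 28 by 3 genes and in 1 by 4 genes. At 555 members (81.0%) the nearest starts were divergent, with the minus-strand start to the left of the plus-strand start. At the other 130 these starts were in the reverse order, so that transcripts from them overlapped head to head. The arrangement thus follows the annotated transcript starts nearest to each peak, and a pair could fall in both classes. The 2 members at Cnot9/Usp37 had divergent starts 252 bp apart and overlapping starts 223 bp apart. The starts of divergent pairs were close, with a median spacing of 170 bp (quartiles 94 and 337), and 389 of 555 lay within 300 bp of each other. In overlapping pairs the median spacing was 276.5 bp.

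The peaks sat on the starts themselves. The centre lay between the nearest opposite starts in 358 of 685 members (52.3%, 48.5 to 56.0), in 55.3% of divergent and 39.2% of overlapping ones. The interval covered a TSS in 519 members and the starts of both genes in 192. The median distance from centre to nearest TSS was 44 bp in members. It was 119.5 bp in the 5951 peaks with coding TSSs within 1 kb on only 1 strand (single-strand promoter peaks). Within 100 bp lay 73.4% of members against 45.6%. Since the rule asks for a start on each strand, a shorter distance is built into it and was not tested. The centre was upstream of the nearer TSS in 56.1% of members and 60.4% of single-strand promoter peaks.

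**Figure D1:**
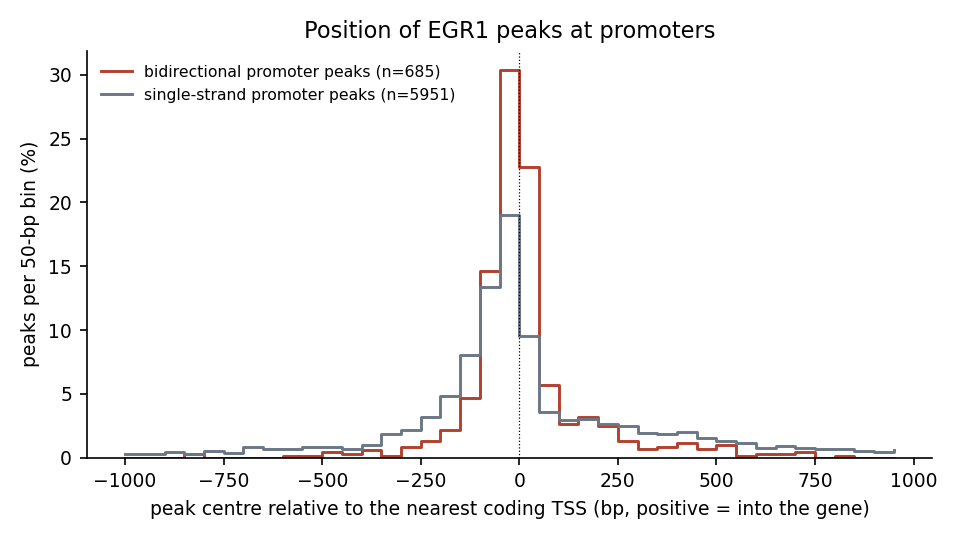
Distance of EGR1 peak centres from the nearest protein-coding TSS (x axis, bp, positive values inside the gene) against the percent of peaks in each 50-bp bin (y axis), for bidirectional (red) and single-strand (grey) promoter peaks. The bidirectional curve is the narrower, with 73.4% of its peaks within 100 bp of a TSS against 45.6%.

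At the limit of the rule, the members just inside were Sez6l2/Asphd1, Lrp2bp/Ankrd37 and Ric8a/Bet1l, with the farther TSS 979.5, 977 and 976.5 bp from the centre. Just outside were Stk4/Tomm34, Ppp1r13l/Cd3eap and Ss18l1/Psma7, at 1004.5, 1019.5 and 1020 bp. Peaks just outside count as single-strand promoter peaks, so that class also takes in peaks with an opposite coding TSS beyond 1 kb. Single-strand promoter peaks may also have a noncoding partner, and 814 of 5951 (13.7%) had an opposite-strand long noncoding TSS within 1 kb.

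The 10 members with the lowest IDR all held an exact EGR1 motif. The lowest of all, 5.19e-09 on chr12:105685284-105685589, lay at Gskip and Atg2b, whose starts are 190 bp apart and which encode a GSK3B-interacting protein and a lipid transfer protein of autophagy. Next came Atp6v1b2/Slc18a1 on chr8:69088543-69088784, with an IDR of 6.08e-09, where a subunit of the vacuolar proton pump faces a vesicular monoamine transporter. Transcripts from the starts nearest to this peak overlap by 563 bp. The peak at 6820408C15Rik/Zcchc3 (6.23e-09, chr2:152414780-152415031) held 2 motifs, as did that at Ttc3/Pigp (6.68e-09, chr16:94370447-94370815), a ubiquitin ligase and an enzyme of GPI anchor synthesis. Both of these peaks carried their motifs on opposite strands. The GTPase gene Arl5b and the RNA methyltransferase gene Nsun6 shared a peak of IDR 9.04e-09 on chr2:15055100-15055367. The peak at Pus10 and Pex13, a pseudouridine synthase and a peroxisomal import protein with starts 48 bp apart, had an IDR of 1.03e-08 (chr11:23665872-23666104). Mbd5/Orc4 (1.04e-08, chr2:48949239-48949538) had 2 motifs, and Atg3/Slc35a5 (1.21e-08, chr16:45158613-45158847) and Cct7/Pradc1 (1.65e-08, chr6:85451343-85451602) 1 each. Between them ranked Tsen34/Mboat7 (1.53e-08, chr7:3692750-3692975), a tRNA splicing endonuclease subunit and a phospholipid acyltransferase. Among the 10, the centre was between the starts at 7 and the GC content ranged from 63.1 to 74.6%. Motif frequency fell along the ranking, with a motif in 32 of the first 50 members and 53 of the first 100.

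The median IDR of the members was 1.33e-05, against 8.05e-05 in single-strand promoter peaks and 0.001145 in the 5302 peaks over 1 kb from any coding TSS. An IDR at or below the median of all peaks (0.000325) was found in 442 of 685 members (64.5%) and 3508 of 5951 single-strand promoter peaks (58.9%), a difference of 5.58 percentage points (95% Newcombe interval 1.72 to 9.29, 2-sided Fisher's exact test, p = 0.00516, 0.00620 after Benjamini-Hochberg adjustment over the 6 such tests). The difference was smaller and did not pass the test (p = 0.141, Fisher's exact test) among peaks within 250 bp of the nearest TSS, at 3.12 points, and among peaks with a CpG ratio of at least 0.6, at 3.67 points (p = 0.0879, Fisher's exact test). With only the start of each gene record as TSS it was 2.14 points (p = 0.330, Fisher's exact test). The unit of each of these tests is the peak or the promoter, not the animal, so p-values and intervals cover the spread between peaks only.

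The members were rich in CpG dinucleotides. The observed/expected CpG ratio, which is 1 where CpGs are as frequent as the C and G content gives, had a median of 0.838, against 0.777 in single-strand promoter peaks and 0.310 in peaks away from coding TSSs. A ratio of at least 0.6, the usual mark of a CpG island, was reached by 598 of 685 members (87.3%) and 4587 of 5951 single-strand promoter peaks (77.1%), a difference of 10.2 points (7.32 to 12.8, 2-sided Fisher's exact test, p = 1.27e-10, adjusted 2.54e-10). The difference was 7.1 points among peaks within 250 bp of the nearest TSS and 5.67 points with only the start of each gene record as TSS. Over all alternatives it ranged from 5.67 to 11.6 points. The median number of CpGs in a member's own interval was 20, and the median width of the members was 250 bp. The median GC content was 65.9% in members and 66.3% in single-strand promoter peaks.

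The exact EGR1 motif was found in 136 of 685 members (19.9%, 17.0 to 23.0) and in 1395 of 5951 single-strand promoter peaks (23.4%). The share in members was lower, with a difference of -3.59 points (-6.61 to -0.263, 2-sided Fisher's exact test, p = 0.0351, adjusted 0.0351). The form GCGGGGGCG occurred in 14.9% of members and 18.5% of single-strand promoter peaks (p = 0.0211, Fisher's exact test), and GCGTGGGCG in 5.55% and 5.26% (p = 0.719, Fisher's exact test). The motif was present in 18.7% of divergent members and 24.6% of overlapping members. No member held more than 2 motifs, and 12 held 2.

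Motifs lay near the middle of the peaks. Within 50 bp of the centre the members had 41.6 motifs per 25 bp and 1000 peaks, against 1.68 at 500 to 1000 bp, a ratio of 24.8 that was 24.6 in single-strand promoter peaks. The maximum was not at the centre itself. Of the 150 motifs within 100 bp of a member's centre, 112 lay at lower and 37 at higher coordinates, with a median offset of -21.0 bp, and in single-strand promoter peaks the median was -17.0 bp over 1488 motifs. The cause of this offset was not tested, and distances of this size to a TSS are uncertain by as much. In divergent members, 62 motifs lay between the starts, in 54.9 kb of peak sequence (1.13 per kb), and 50 downstream of a start, in 74.6 kb (0.67 per kb). These densities were not matched for distance to the peak centre, near which motifs were most frequent, so they do not show a preference for the stretch between the starts. A preferred direction of the motifs was not detected, since 79 of 148 read GCGTGGGCG or GCGGGGGCG on the strand of the nearer gene (53.4%, 45.4 to 61.2, 2-sided exact binomial test, p = 0.460).

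**Figure D2:**
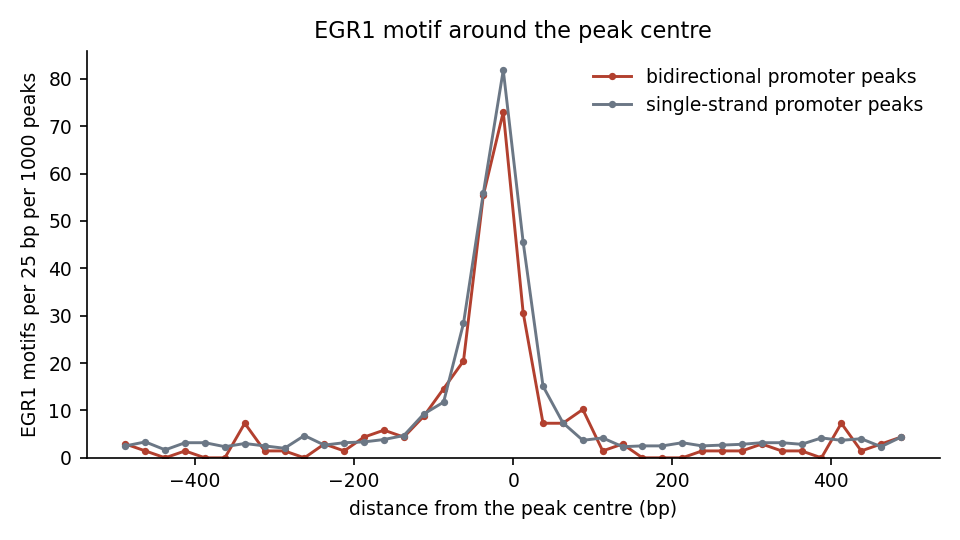
Exact EGR1 motifs on either strand around the peak centre (x axis, bp along the chromosome) as motifs per 25-bp bin and 1000 peaks (y axis), for bidirectional (red) and single-strand (grey) promoter peaks. Both curves peak at slightly lower coordinates than the centre, with median offsets of -21.0 and -17.0 bp.

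Motif and IDR went together within both classes. When all peaks were split by IDR into 4 bins of equal size, 79 of the 269 members in the lowest bin held the motif (29.4%), then 26 of 173, 17 of 134 and 14 of 109 (12.8%) in the next 3 bins. Single-strand promoter peaks ran from 36.7% in the lowest bin through 20.9 and 16.3 to 12.2%. The classes differed most in the lowest bin, which did not pass after adjustment over the 4 bins (2-sided Fisher's exact test, p = 0.0177, adjusted 0.0710). Of the members, 39.3% fell in the lowest bin of all peaks and 15.9% in the highest, against 32.9 and 18.5% of single-strand promoter peaks.

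**Figure D3:**
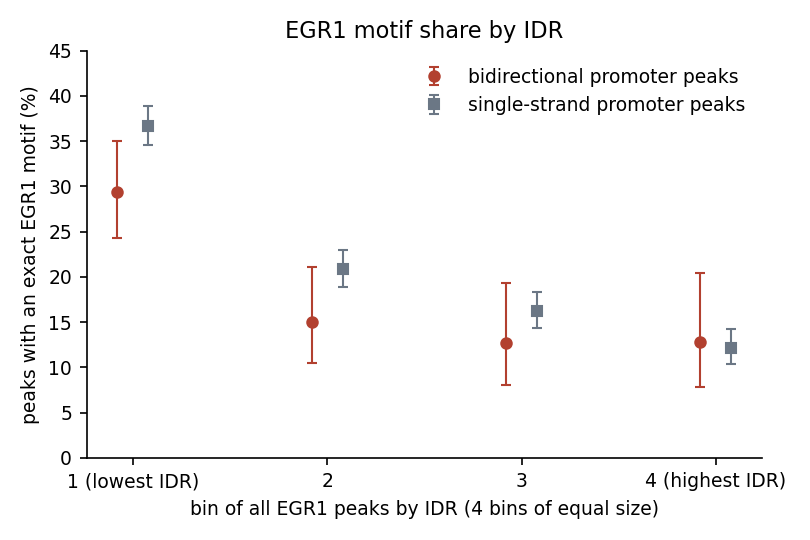
Percent of peaks with an exact EGR1 motif (y axis) in each of 4 equal bins of all EGR1 peaks by IDR (x axis, lowest first), for bidirectional (red circles) and single-strand (grey squares) promoter peaks, with 95% Wilson intervals. The motif share is highest in the lowest-IDR bin in both classes, at 29.4 and 36.7%.

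Counted from the promoters rather than from the peaks, a larger share of bidirectional than of single-strand promoters had an EGR1 peak. The midpoint of the closest opposite-strand coding starts, up to 1 kb apart, gave 1390 bidirectional promoters, and the starts of genes with no opposite coding TSS within 2 kb gave 18882 single-strand promoters. A peak centre lay within 500 bp of 545 bidirectional promoters (39.2%, 36.7 to 41.8) and of 3607 single-strand promoters (19.1%, 18.5 to 19.7), a difference of 20.1 points (17.5 to 22.8, 2-sided Fisher's exact test, p = 4.27e-62, adjusted 2.56e-61). These promoter classes differ in CpG content, since 78.9% of bidirectional but 41.4% of single-strand windows of 1 kb had a CpG ratio of at least 0.6. Among such CpG-rich promoters the difference was 7.15 points (4.03 to 10.3), with 500 of 1097 bidirectional (45.6%) and 3007 of 7825 single-strand promoters (38.4%) occupied (2-sided Fisher's exact test, p = 7.01e-06, adjusted 1.05e-05). Each bidirectional window is set on the midpoint between starts of 2 genes, and each single-strand window on 1 gene start. The shares were not adjusted for the number of starts in a window, so they do not show a preference per start. Whether the genes were transcribed in the cortex was not analysed here.

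Occupancy rose with the CpG ratio in bidirectional promoters, from 0 of 45 under 0.2 (which allows up to 7.87%, the upper Wilson bound) and 1 of 93 at 0.2 to 0.4 to 28.4% (44 of 155) at 0.4 to 0.6 and 46.4% (255 of 549) at 0.6 to 0.8. It did not rise further, at 45.5% for ratios of 0.8 to 1.0 and 37.7% (20 of 53) above. At 0.4 to 0.6 and at 0.6 to 0.8 the intervals of bidirectional and single-strand promoters did not overlap, and in the other bins they did.

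**Figure D4:**
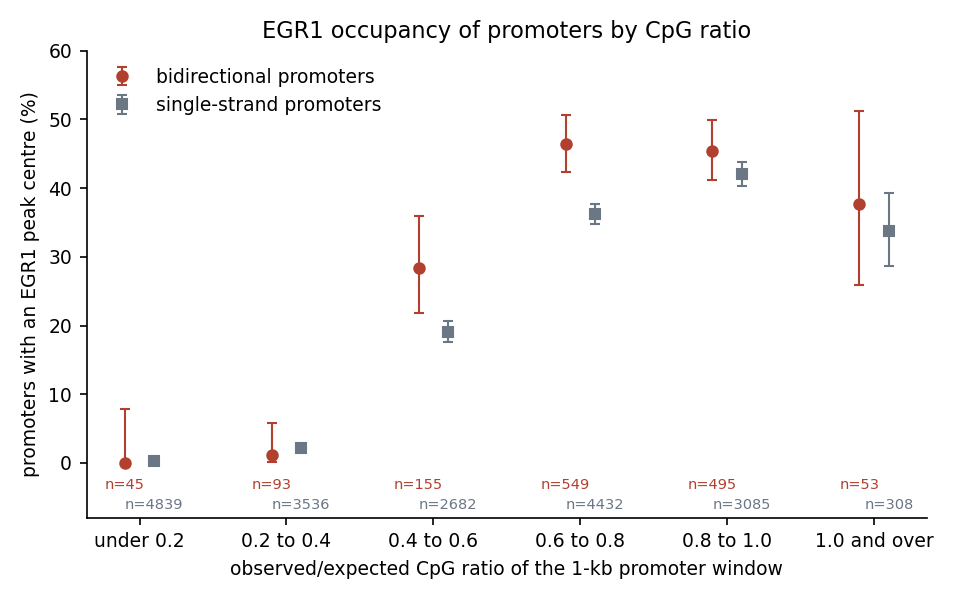
Percent of bidirectional (red circles) and single-strand (grey squares) promoters with an EGR1 peak centre within 500 bp (y axis) by the CpG ratio of the 1-kb promoter window (x axis), with 95% Wilson intervals and the number of promoters below each point. Occupancy is near 0 below a ratio of 0.4 in both classes and reaches 46.4 and 36.2% at 0.6 to 0.8.

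Divergent promoters were occupied more often than overlapping ones, at 41.3% (450 of 1089) against 31.6% (95 of 301), a difference of 9.76 points (3.59 to 15.6, 2-sided Fisher's exact test, p = 0.00214). Among CpG-rich promoters it was 8.01 points (0.679 to 15.03, p = 0.0347, Fisher's exact test). These comparisons of arrangement were added after the data were seen. By spacing, occupancy was 42.8% where divergent starts were within 100 bp of each other, 41.3% from there to 300 bp and 36.8% above, and the intervals of these 3 shares overlapped.

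Bidirectional promoters with an exact EGR1 motif in the 1-kb window were mostly occupied. A peak was found at 129 of 182 of them (70.9%, 63.9 to 77.0) and at 416 of 1208 without the motif (34.4%, 31.8 to 37.2), a difference of 36.4 points (29.0 to 43.1, 2-sided Fisher's exact test, p = 2.02e-20, adjusted 6.05e-20). In CpG-rich bidirectional promoters the shares were 70.8 and 41.0% (p = 1.09e-12, Fisher's exact test). The single-strand promoters had a peak at 64.5% with and 14.7% without the motif. Most occupied bidirectional promoters, 416 of 545, had no exact motif in the window, and 53 promoters with the motif had no peak.

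Among 13 motifs searched on both strands in the 250 bp on the peak centre, the ETS letters CCGGAAGT set the members apart most from single-strand promoter peaks. They occurred in 68 of 685 members (9.93%) and 233 of 5951 single-strand promoter peaks (3.92%), a difference of 6.01 points (2-sided Fisher's exact test, adjusted over the 13 motifs, p = 2.34e-09), against 4.61% of windows of the same length at all 21938 coding gene starts. A further 4 motifs were more frequent in members by 1.47 to 1.55 points, with adjusted p-values of 0.0457 to 0.0473 (Fisher's exact test). They were NRF1 (GCGCATGCG, 3.65 against 2.10%, 1.94% of all starts), YY1 (AAGATGGCG, 3.21 against 1.73%, 2.03% of all starts), the ZNF143 core (ACTACAA, 3.21 against 1.70%, 2.73% of all starts) and the cyclic AMP response element CRE (TGACGTCA, 3.50 against 2.03%, 2.23% of all starts). NRF1 and YY1 are factors of housekeeping and mitochondrial genes, and CRE is the site of the activity-dependent factor CREB. Comparisons were repeated with only peaks within 250 bp of a TSS, only CpG-rich peaks or only 1 peak per set of genes. The differences of these 4 motifs stayed between 1.11 and 1.67 points but none passed the test. ETS passed in each (largest adjusted p = 1.32e-06, Fisher's exact test). Bidirectional promoters without a peak also held these letters, over the 250 bp on promoter midpoints, in a comparison added after the data were seen. In occupied and unoccupied ones, ETS was found in 12.8 and 9.47%, NRF1 in 4.95 and 2.72%, and YY1 in 4.22 and 3.91%. The ZNF143 core was found in 5.32 and 4.02% and CRE in 4.40 and 2.84%, and none of these differences passed after adjustment.

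The most frequent letters were as common in members as in other promoter peaks. CCAAT, bound by NF-Y, occurred in 28.8 and 27.9% (32.5% of all starts), and the SP1 letters GGGGCGGGG in 26.0 and 25.8% (13.3% of all starts). In these windows the EGR1 motif was found in 20.6 and 24.0% (adjusted p = 0.0917, Fisher's exact test) and in 4.23% of all starts. TATAAA was rare, at 1.61 and 2.94% against 9.31% of all starts (adjusted p = 0.0917, Fisher's exact test). AP-1 (TGANTCA, 2.48 and 3.34%, 5.07% of all starts), E2F (TTTNGCGC, 2.48 and 1.87%, 1.34%), Kaiso (CTCGCGAGA, 1.31 and 1.04%, 0.802%) and the CArG box of serum response factor (0.876 and 0.790%, 1.03%) did not pass either.

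Within the members, the SP1 letters were found in 60 of 141 windows with the EGR1 motif (42.6%) and 118 of 544 without (21.7%, 2-sided Fisher's exact test, adjusted p = 1.86e-05). The motifs are alike in sequence, and in 44 of those 60 windows the matches shared bases. The ETS letters were found in 4.26% of members with the EGR1 motif and 11.4% without, which did not pass (adjusted p = 0.0646, Fisher's exact test).

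**Figure D5:**
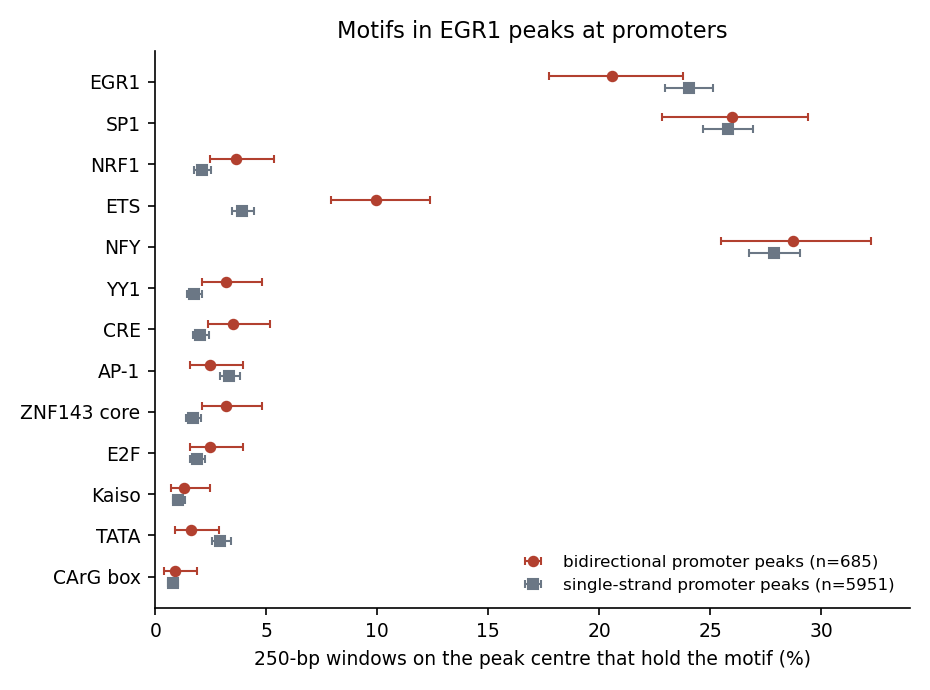
Percent of 250-bp windows on the peak centre that hold each of 13 motifs (x axis), for bidirectional (red circles) and single-strand (grey squares) promoter peaks, with 95% Wilson intervals. ETS stands apart, at 9.93 against 3.92%, while SP1 and NFY are nearly level.

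The genes at the members were read against all coding genes that could have had a member. Of 21938 coding genes, 3010 (13.7%) had a coding TSS on the opposite strand within 2 kb, and 1221 of these gene records (40.6%) had a member within 1 kb. The gene lists are described by their counts beside this 40.6%, and paired genes of a list can share a peak.

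Mitochondrial genes often have an opposite partner. Of the genes of the respiratory chain and mitochondrial ribosome, 78 of 184 (42.4%) had one, and 27 of the 78 (34.6%) had a member. The lowest IDR was at Mrpl48/Rab6a (4.02e-08, chr7:100607209-100607436), a mitochondrial ribosomal protein and a Golgi GTPase, in a peak with no exact EGR1 motif. Ndufaf2, an assembly factor of complex I, shared its peak (4.97e-08, chr13:108158572-108158756) with the DNA repair gene Ercc8, whose start is 108 bp away. Mrpl32 shared a peak of IDR 5.93e-08 on chr13:14613076-14613185 with Psma2, a proteasome subunit, and Atp5d, a subunit of ATP synthase, shared 1 of 7.44e-08 on chr10:80139344-80139531 with Cbarp.

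Among chaperones, 14 of 42 genes with an opposite partner (33.3%) had a member. After Cct7 came Dnajc17/Zfyve19 (2.74e-08), Dnajc30/Bud23 (1.47e-07) and Hsp90b1/Ttc41 (2.89e-07), where Hsp90b1 encodes the HSP90 of the endoplasmic reticulum. For DNA repair the count was 20 of 48 (41.7%), led by Ercc8, the checkpoint gene Rad9b (1.25e-07, with Vps29), Xrcc6, the Ku70 subunit of end joining (1.76e-07, with Desi1), and Polh, a translesion polymerase (2.20e-07, with Xpo5). The proteasome had 6 of 14 (42.9%), led by Psma7/Ss18l1 (3.80e-08), Psma2 and Psmd13/Sirt3 (3.00e-07). These 3 lists had shares on both sides of 40.6%.

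The highest shares among lists with over 10 such genes were those of RNA polymerase and of aminoacyl-tRNA synthetases. RNA polymerase and Mediator subunits and general factors had 19 of 34 (55.9%), with Gtf2h3/Eif2b1 (5.44e-08, starts 9 bp apart), Gtf2h1/Hps5 (5.50e-08), Polr3g/Mblac2 (5.54e-08) and Polr2b/Noa1 (3.28e-07) first. None of these 4 peaks held the exact EGR1 motif. Aminoacyl-tRNA synthetases had 6 of 11 (54.5%), with Ears2/Ubfd1 (1.96e-07), Rars2/Orc3 (7.47e-06), Fars2/Lyrm4 (0.000303) and Yars/S100pbp (0.00332). Genes whose symbols match splicing families had 21 of 50 (42.0%), led by Hnrnpdl, the helicase gene Ddx5 (2.95e-08, with Cep95), Hnrnph3/Pbld2 (6.14e-08) and Prpf40b/Fam186b (6.67e-08). This list follows symbols such as Ddx and Lsm, and a role of each gene in splicing was not checked. Cytosolic ribosomal proteins had 8 of 20, led by Rpl18, Rpl12/Lrsam1 (8.56e-08), Rpl7a/Med22 (3.80e-07) and Rpl4/Zwilch (1.55e-06). The polymerase and synthetase lists rest on few genes and were not tested.

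Genes whose symbols match chromatin families had 9 of 24 (37.5%), with Mbd5, the bromodomain gene Brd2 (6.34e-08, beside H2-DMa) and the sirtuin genes Sirt2/Nfkbib (2.49e-07) and Sirt3 at the lowest IDRs. The list follows symbols and so also takes in sirtuins that act largely outside the nucleus, among them the mitochondrial Sirt3. Histone genes, many of which stand head to head in clusters, were the exception. Of 83 histone genes, 38 (45.8%) had an opposite partner, but 2 of the 38 (5.26%) had a member, Hist2h2ab and Hist2h2ac at a single peak (1.03e-05, chr3:96219948-96220122). At any EGR1 peak within 1 kb stood 16.9% of histone genes, against 28.1% of all coding genes.

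Of 323 genes whose symbols match families of synapses and ion channels, 43.7% were within 1 kb of some EGR1 peak. A role of each gene at synapses was not checked. The same share was 42.4% for chaperones, 43.2% for DNA repair, 43.1% for RNA polymerase and 60.6% for chromatin, but 31.5% for mitochondrial genes. An opposite partner was found for 26 of the 323 (8.05%, beside 13.7% of all coding genes). Of the 26, 10 (38.5%) had a member, and these included Snap29, the potassium channel subunit gene Kcnab2 (3.04e-07, with Nphp4), Nlgn2, a postsynaptic adhesion protein of inhibitory synapses (1.77e-05, with Tmem256), and Gabra4/Gabrb1, a pair of GABA-A receptor subunits with starts 132 bp apart (8.03e-05, chr5:71657891-71658145). Of 44 activity-induced genes, which include Egr1 itself and its relatives, 30 (68.2%, beside 28.1% of all coding genes) were within 1 kb of some EGR1 peak, but only Dusp1, a phosphatase of MAP kinases, had an opposite partner and a member (5.17e-05, chr17:26561369-26561632, with Ergic1).

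Of 11 classic bidirectional pairs, chosen for their head-to-head starts, 3 had a member, and none of those peaks held an exact EGR1 motif. Of all bidirectional promoters, 39.2% had a peak centre within 500 bp of the midpoint, a measure unlike the 1-kb rule for a member. Col4a1/Col4a2, which encode collagen IV chains and whose starts overlap head to head, had a peak of IDR 6.02e-07 centred between the starts (chr8:11312690-11312953). Mrpl18/Tcp1, a mitochondrial ribosomal protein and a CCT chaperonin subunit, had a peak of IDR 0.000579 (chr17:12916758-12917021) and Atm/Npat, a DNA damage kinase and a regulator of histone genes, 1 of 0.00497 (chr9:53535977-53536240), and both were centred outside the interval between the starts. No peak centre lay within 1 kb of any TSS of either gene at Hspd1/Hspe1, Surf1/Surf2, Ppat/Paics, Cox4i1/Emc8, Sars2/Mrps12 and Trp53/Wrap53. At Brca1/Nbr1 and Tap1/Psmb9 a centre lay 97.5 and 45.5 bp from a TSS of 1 of the genes, but not within 1 kb of both.

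Several pairs held more than 1 member. The 7 pairs with 3 members, named after their values were seen, were Ankrd16/Fbh1, Atp5d/Cbarp, Bcs1l/Zfp142, H2-DMa/Brd2, Nemp1/Nab2, Vipr1/Lyzl4 and Zfp646/Zfp668. Nab2 encodes a co-repressor that binds EGR1, and its promoter with Nemp1 had IDRs of 2.06e-07, 4.31e-07 and 5.26e-07 at chr10:127666567-127666812, chr10:127666998-127667112 and chr10:127667729-127667978. None of the 3 peaks there held an exact motif. At Zfp646/Zfp668, a pair of zinc-finger genes, the IDRs were 1.71e-06, 0.0195 and 4.00e-08, and the lowest belonged to the peak with the motif. At Atp5d/Cbarp the IDRs were 0.0156, 7.44e-08 and 1.39e-07, with a motif in the first and the second. The members of a pair could thus differ in IDR by orders of magnitude over a few kilobases.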

How the data were processed

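EGR1 ChIP-seq peaks of mouse frontal cortex were analysed. According to the methods of the study, the authors aligned quality-trimmed reads to mm10 (Bowtie) and called peaks with SPP, of which those at an IDR of at most 2% were merged over replicates, and the submitters' processing notes name Bowtie2 2.2.9 and bedtools 2.26.0. The deposited file gives the start, the end and the IDR, a value read like a q-value, of each peak. Positions were read as in BED files, whose convention the sources used here do not state, and are given counted from 1. Depth per peak is unknown. Input DNA was not analysed here.

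TSSs of all protein-coding transcripts came from GENCODE M21 and sequence from GRCm38.p6. Motif, IDR and CpG shares and promoter occupancy were compared by 2-sided Fisher's exact tests with Benjamini-Hochberg adjustment, 95% Wilson intervals for shares and Newcombe intervals for differences, which cover counting error only. Members, gene lists (symbol patterns) and tests were chosen with earlier results of these data known. Genes were named if at the 10 lowest-IDR members, at the printed sequences, in a list of known head-to-head pairs (of which 2 are not reported here), among the first 4 of a gene list by IDR, or at the 1-kb limit, and exceptions are stated. Alternatives varied the TSS set, predicted genes, IDR, distances, CpG content, motif form and peaks per set of genes. Those on arrangement and on the 13 motifs were chosen after seeing the data. So were the tests within IDR bins, by arrangement, between motifs and within CpG-rich promoters by motif. Python 3.11.15, pandas 2.3.3, scipy 1.17.1, pysam 0.24.0 and matplotlib 3.10.9 were used. Tested on simulated data, the scripts classified 600 of 600 peaks as a direct search did, and 7 of 200 simulations without a difference gave p under 0.05.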

Additional observations from a re-analysis of the deposited data

How the results depend on the processing

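The counts and tests kept their direction under the alternatives run, with these exceptions. The share of members centred between the starts was 46.6% with only transcripts tagged basic, 36.5% with only the start of each gene record and 57.1% within 500 bp of the TSSs, so it depends on which starts are counted. The excess of low IDRs was 2.14 points with only the start of each gene record (p = 0.330, Fisher's exact test), 3.12 points within 250 bp of a TSS and 3.67 points at a CpG ratio of at least 0.6, and no longer passed. The EGR1 motif difference was 0.288 points in favour of members for GCGTGGGCG alone, and between -5.93 and -3.46 points in the other 11 alternatives, each of which passed before adjustment. Of the 13 motifs, 5 passed. That number was 1 within 250 bp of a TSS, 2 at a CpG ratio of at least 0.6 and 1 with a single peak per set of genes. The 2 were ETS, and EGR1 as the rarer in members. The differences of NRF1, YY1, CRE and the ZNF143 core stayed between 1.11 and 1.67 points. The number of members ranged from 486 to 618, and occupancy differences from 14.6 to 22.9 points overall and from 4.76 to 7.86 points in CpG-rich promoters. No replicate could be left out. No paired analysis was possible because the list merges the replicates. The unknown depth limits what the lack of a peak shows.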

Other observations

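Occupied and unoccupied bidirectional promoters were compared over the 250 bp on their midpoints, a comparison added after the data were seen. The EGR1 motif was found in 8.81% of 545 occupied and 1.30% of 845 unoccupied promoters (2-sided Fisher's exact test, adjusted over 13 motifs, p = 2.48e-10), and the SP1 letters in 21.8 and 11.4% (adjusted p = 1.32e-06, Fisher's exact test). TATAAA, the core promoter letters read by TATA-binding protein, was rarer in occupied promoters, at 1.65 against 5.33% (adjusted p = 0.00146, Fisher's exact test). Each of these 3 also passed among CpG-rich promoters, at 9 against 1.68%, 22.2 against 14.2% and 1.4 against 5.03%. The ETS letters, frequent in the members, were found in 12.8% of occupied and 9.47% of unoccupied bidirectional promoters, which did not pass (adjusted p = 0.134, Fisher's exact test). The CCAAT letters were found in 35.05 and 33.96%.

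A long noncoding TSS was also within 1 kb of 22 of 685 members (3.21%) and of 845 of 5951 single-strand promoter peaks (14.2%). In 71 members (10.4%) the nearest gene on at least 1 strand was a predicted gene, by a symbol that starts with Gm or ends in Rik.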
